A study of Mus musculus with 6 samples.

Results

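The genes described are 8 potassium channel subunits of the kidney, Kcnj1, Kcnj10, Kcnj15, Kcnj16, Kcnma1, Kcne1, Kcnq1 and Kcnk5. They were taken by symbol from the 33696 genes counted in single-cell RNA libraries of mouse kidney, and each symbol matched 1 gene. The libraries came from 3 sham mice and 3 DOCA-salt mice, with 1 library per mouse, and all mice were male C57BL/6 of 8 to 10 weeks. DOCA-salt mice had the left kidney removed and were given, 1 week later, a 50 mg pellet of deoxycorticosterone acetate, a mineralocorticoid, with 1% sodium chloride in the drinking water for 21 days. Sham mice had sham surgery, normal water and no pellet, so the loss of a kidney, the hormone and the salt cannot be told apart, and both groups are young males of an inbred strain.

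Potassium is taken into tubule cells by the basolateral sodium pump and leaves again through potassium channels. Basolateral channels recycle it and set the membrane voltage on which salt transport depends, and apical channels of the thick ascending limb and the distal nephron recycle or secrete it into the urine. Mineralocorticoids act through the receptor encoded by Nr3c2 in the distal nephron and are known for driving sodium reabsorption and potassium secretion there. Among the 8 genes, Kcnj1 encodes the apical inward rectifier of the limb and distal nephron, and Kcnma1 the pore of the large-conductance calcium-activated channel. Kcnj10 and Kcnj16 form a basolateral heteromer in the distal nephron, Kcnj15 is an inward rectifier subunit of proximal cells, and Kcnk5 is a background channel of proximal cells. Kcnq1 is a voltage-gated pore and Kcne1 is a small accessory subunit that can join it.

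After removal of barcodes with over 50% mitochondrial UMIs and of predicted doublets, 55630 cells remained, 7701 to 9933 per mouse. The libraries held 93172739 to 137819127 UMIs before that removal, and the kept cells 65059932 to 103168914 UMIs per mouse. Cells were clustered without the 8 genes and named from marker genes, and UMIs were then summed per mouse and cell class, so that n is 3 mice per group throughout. Levels are given as UMIs per 1000000 UMIs of the class (CPM). A change is the log2 ratio of DOCA-salt over sham with its SE, from edgeR's quasi-likelihood test, with p-values adjusted by the Benjamini-Hochberg method across the class's tested genes, and a change was called at an adjusted p under 0.05. Any 2 libraries shared 0.2% to 0.43% of the smaller library's barcodes. In whole-kidney sums, fewer cells of a type and less RNA per cell cannot be told apart.

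On the GRCm39 build of the files, Kcnj1 lies on chr9:32283789-32310493 (plus strand), Kcnj10 on chr1:172168765-172201652 (plus), Kcnj15 on chr16:95058417-95101119 (plus) and Kcnj16 on chr11:110858843-110927617 (plus). Kcnma1 lies on chr14:23339499-24064559 (minus), Kcne1 on chr16:92142870-92156356 (minus), Kcnq1 on chr7:142660099-142980788 (plus) and Kcnk5 on chr14:20190125-20231900 (minus). Kcnj1, Kcnj16, Kcne1 and Kcnk5 overlap no other gene among those counted. Kcnq1 contains the antisense transcript Kcnq1ot1, counted at 32292 UMIs against 18646 for Kcnq1, and Kcnj15 overlaps the antisense Gm31641, at 20451 UMIs against 153465 for Kcnj15. How the counting used strand was not given in the sources used here, so such pairs may share reads.

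The promoters of Kcnj1 and Kcnj10 are shown because, among the genes with a promoter in the RefSeq table, they were the ones that held the half-site. The sequences are the 250 bases before the RefSeq start on GRCm38.p6, in the direction of transcription, and capitals mark AGAACA, the half-site bound by mineralocorticoid and glucocorticoid receptors, or its reverse complement TGTTCT.
Kcnj1, chr9:32393735-32393984 (plus): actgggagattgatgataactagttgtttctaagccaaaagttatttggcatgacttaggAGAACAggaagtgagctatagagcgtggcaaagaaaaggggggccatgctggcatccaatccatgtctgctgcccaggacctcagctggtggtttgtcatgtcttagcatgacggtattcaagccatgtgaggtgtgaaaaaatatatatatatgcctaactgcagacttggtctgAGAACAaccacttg
Kcnj10, chr1:172340960-172341209 (plus): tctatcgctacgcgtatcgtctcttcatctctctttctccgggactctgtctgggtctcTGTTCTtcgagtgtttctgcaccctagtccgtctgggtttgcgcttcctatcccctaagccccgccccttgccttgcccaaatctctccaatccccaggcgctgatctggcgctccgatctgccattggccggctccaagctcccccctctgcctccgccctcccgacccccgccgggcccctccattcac
Kcnj1 held the half-site at 2 places and Kcnj10 at 1. On either strand it stood in 16.1% of the 32851 mouse promoters of that length, so a match is frequent. The whole palindrome, AGAACA and TGTTCT 3 bases apart, which contains the half-site, stood in 0.00913% of them and in neither gene. Of the 8 genes, 6 had promoters in the table, and those of Kcnj15, Kcnj16, Kcnma1 and Kcnk5 held no half-site.

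In sham kidney each gene had its own distribution along the nephron. Kcne1 was highest in connecting tubule (CNT), at 344 ± 43.4 CPM (SD, n = 3), then principal cells (PC), at 204 ± 13.2 CPM, and type B intercalated cells (type B IC), at 57.6 ± 13.9 CPM, and these ranges did not overlap. The type B IC level was carried by a deep sub-cluster of 124 sham cells at 174 CPM, and the main sub-cluster stood at 7.01 CPM. Whether those deep cells hold RNA of other cells was not tested. In distal convoluted tubule (DCT), thick ascending limb (TAL) and type A intercalated cells (type A IC) Kcne1 stayed under 5 CPM. Its pore partner Kcnq1 was broader. The level was 308 ± 19.8 CPM in CNT and 296 ± 19.5 CPM in type A IC, whose ranges overlapped, and 229 CPM in PC and 228 CPM in type B IC, which overlapped too. DCT followed at 163 ± 6.98 CPM and TAL at 55.0 ± 2.47 CPM.

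Kcnj1 reached 528 ± 110 CPM in DCT, 388 ± 53.0 CPM in CNT and 374 ± 56.5 CPM in TAL, 3 levels whose neighbours overlapped, and stood apart at 196 ± 20.4 CPM in PC. Kcnj10 was ordered without overlap as CNT (167 ± 9.59 CPM), DCT (135 ± 10.6 CPM), PC (89.0 ± 10.6 CPM) and TAL (62.2 ± 3.34 CPM). Its partner Kcnj16 had overlapping ranges in CNT (416 ± 21.4 CPM) and proximal tubule (PT; 392 ± 26.1 CPM), with TAL at 346 ± 1.39 CPM. PT held 1.16 ± 0.480 CPM of Kcnj10 but an abundance of Kcnj15, whose product can also pair with that of Kcnj16.

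Kcnj15 was a proximal gene, with 465 ± 48.9 CPM in PT, no overlap with any other class, and 86.1% of its UMIs there. Kcnk5 stood at 169 ± 20.3 CPM in PT and 151 ± 23.5 CPM in the cycling cells, with overlapping ranges, and at 56.6 ± 5.20 CPM in thin limb. Kcnma1 was highest in smooth muscle cells or pericytes (266 ± 27.3 CPM), then in the class named parietal from its markers (168 ± 9.52 CPM), and PT came next at 27.9 ± 8.31 CPM. In CNT, PC and both intercalated classes Kcnma1 was under 5 CPM in every mouse, and no test was made there.

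**Figure D1:**
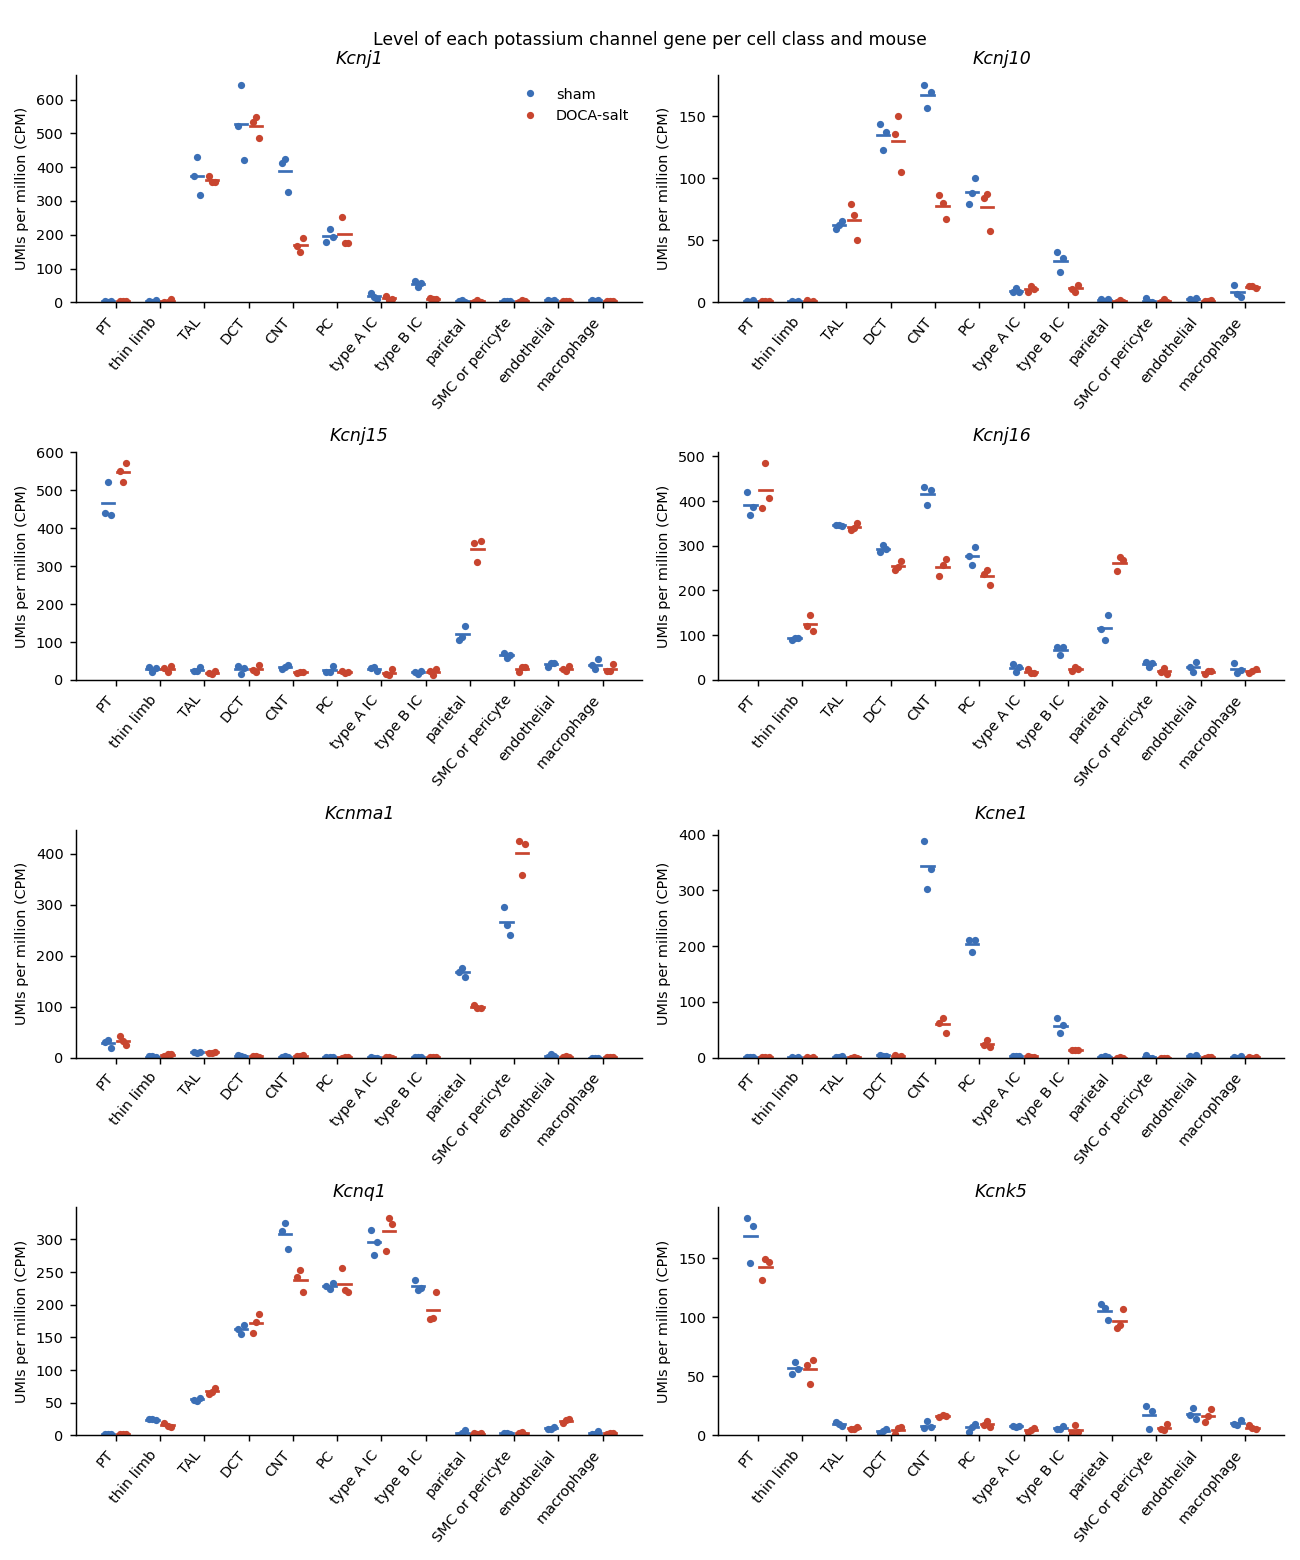
Levels of the 8 channel genes by cell class, in CPM of the class on a linear axis, with 1 point per mouse, sham beside DOCA-salt. In CNT, Kcne1 ran from 303.3 to 389.4 CPM in sham and from 44.44 to 71.65 CPM in DOCA-salt.

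Kcne1 was lower in CNT, in PC and in the whole-kidney sum of DOCA-salt mice. In CNT the sham mice had 389.4, 303.3 and 338.0 CPM and the DOCA-salt mice 62.29, 71.65 and 44.44 CPM, and the groups did not overlap. Kcne1 fell 6.56-fold (log2 change -2.71, SE 0.19; edgeR adjusted p = 7.57e-07). In PC the values were 211.8, 188.9 and 211.8 CPM in sham against 23.08, 30.94 and 19.82 CPM in DOCA-salt, again without overlap. The fall was 7.90-fold (log2 change -2.98, SE 0.17; edgeR adjusted p = 5.55e-06). Summed over the whole kidney, Kcne1 had 16.45, 16.18 and 19.9 CPM in sham and 3.255, 3.16 and 2.105 CPM in DOCA-salt, a 6.66-fold fall (log2 change -2.74, SE 0.20; edgeR adjusted p = 3.02e-04).

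The whole-kidney sum needs no cell class, and the fall kept its direction and call there under each of the 13 alternatives run. In CNT it did so under each alternative that kept the class, from -2.87 to -1.20, and in PC under 15, from -3.38 to -2.85. The smallest value in CNT came from a finer clustering (Leiden resolution 2), where the log2 change was -1.20 (edgeR adjusted p = 0.00687) and the class held 64, 43 and 51 DOCA-salt cells in place of 143, 110 and 94. Sham mice gave 131, 171 and 203 CNT cells at that resolution and 132, 179 and 181 in the main clustering.

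At equal depth a Kcne1 UMI was found in fewer cells. Such a share falls with fewer UMIs per cell as well as with fewer carrying cells, so it cannot tell these apart. With each cell thinned to 1000 UMIs, 29.1%, 25.5% and 26.6% of sham CNT cells had at least 1 Kcne1 UMI, against 6.84%, 7.18% and 4.16% in DOCA-salt. In T or NK cells, which should lack the gene, the thinned shares were 0.547% and 0.112%. In PC the share was 17.6% in sham and 2.69% in DOCA-salt. The exact two-sided permutation test gave p = 0.1 in both classes, the smallest p that 3 against 3 mice allow. Without thinning, 75.1% of sham and 33.6% of DOCA-salt CNT cells had a UMI, at median depths of 9462 and 14868 UMIs per cell, so the deeper group had the lower share.

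Within CNT and PC the cells of the groups fell into different sub-clusters, although the 8 genes took no part in the clustering. For CNT, a sub-cluster led by S100g, Trpv5, Kcne1 itself and Klk1 held 126, 169 and 174 sham cells but 14, 2 and 6 DOCA-salt cells, and one led by Egfem1, Gabrg3 and Tgfb2 held 6, 10 and 7 sham cells but 129, 108 and 88 DOCA-salt cells. The CNT name of the latter is unstable. It had 1 CNT marker among its 10 leading genes, and clusters led by Gabrg3 and Tgfb2 scored best as injured PT and stayed unnamed at Leiden resolution 2 (0, 0 and 1 sham against 72, 64 and 55 DOCA-salt cells) and with a 20% mitochondrial limit (0, 0 and 1 against 42, 51 and 38). Pooled over mice, Kcne1 was at 356 CPM in the sham cells and 317 CPM in the 22 DOCA-salt cells of the S100g sub-cluster. In the Egfem1 sub-cluster Kcne1 was at 195 CPM in the 23 sham cells and 52.3 CPM in the 325 DOCA-salt cells.

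Sham PC split by Kcne1 level. A sub-cluster of 359 sham cells led by Mgat4c, Il1rapl1, Spock3 and Kcne1 itself had Kcne1 at 352 CPM, and a second of 232 sham cells led by Fxyd4 and Aqp2 had 11.5 CPM. DOCA-salt mice had 11 and 21 cells in them. Most DOCA-salt PC, 331 cells, lay in a sub-cluster led by Aqp4, Lcn2 and Btc, where Kcne1 was at 22.5 CPM, against 52.7 CPM in the 29 sham cells there. Kcne1 was therefore lower in DOCA-salt cells inside the sub-clusters that most of them occupied, and these pooled values have no test.

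**Figure D2:**
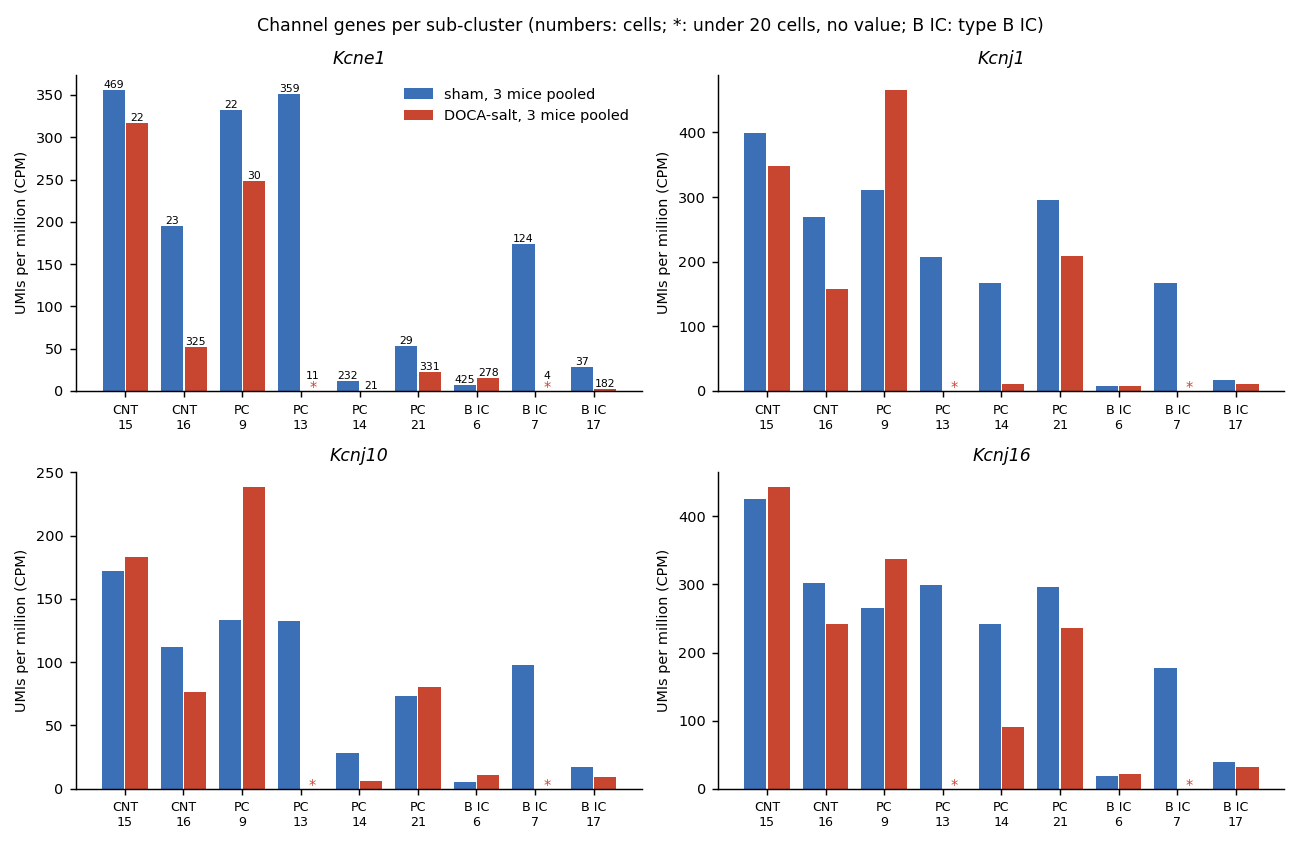
Kcne1, Kcnj1, Kcnj10 and Kcnj16 in the sub-clusters of CNT, PC and type B IC, as CPM of the pooled cells of each group. Kcne1 in the sham-rich CNT sub-cluster stood at 356 CPM in sham and 317 CPM in DOCA-salt cells, and in the DOCA-salt-rich one at 195 and 52.3 CPM.

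Kcne1 was also called lower in type B IC and PT, and neither call held under all alternatives. In type B IC it went from 71.3, 43.48 and 57.87 CPM to 13.18, 14.16 and 12.86 CPM (log2 change -1.91, SE 0.22; edgeR adjusted p = 1.81e-04). Without the deepest type B IC sub-cluster the change turned to 0.90 and was not called (adjusted p = 0.205). In PT 131 sham against 47 DOCA-salt UMIs gave a log2 change of -1.46 (SE 0.27; edgeR adjusted p = 0.0163). The PT levels of 0.989 and 0.368 CPM were not above those of T or NK cells (3.44 ± 3.20 and 0.831 ± 1.44 CPM, from 2 and 1 UMIs), so they are at background and are not read as expression. Leaving out any of 5 of the 6 mice ended that call (sham 1 or 3, or any DOCA-salt mouse, with adjusted p of 0.051 to 0.0688), as did the replicate block (adjusted p = 0.0738). Kcne1 was not tested in DCT, TAL or type A IC, where its counts were too low. In the fit of PC with type A IC, which called 4.33% of all genes, Kcne1 therefore entered through PC, and its value there is no test of a class difference.

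Kcnq1, the pore that Kcne1 joins, moved far less. In CNT the sham values of 312.7, 324.6 and 286.0 CPM lay above the DOCA-salt values of 241.9, 253.2 and 219.6 CPM, and Kcnq1 fell by 0.57 on the log2 scale (SE 0.13; edgeR adjusted p = 0.00758). That call was lost at Leiden resolution 2 and when libraries were scaled by their totals alone (log2 change -0.36, adjusted p = 0.0774). In PC the means were 229 and 233 CPM (log2 change 0.07, SE 0.13; edgeR adjusted p = 0.79) and in type A IC 296 and 313 CPM (0.09, SE 0.14; adjusted p = 0.866). In endothelial cells Kcnq1 rose from 10.8 ± 1.36 to 22.0 ± 3.04 CPM (log2 change 1.04, SE 0.19; edgeR adjusted p = 0.00801), where 1 of 5 channel genes and 8.84% of all genes were called. No alternatives are given here for the endothelial call, and the part of reads from Kcnq1ot1 in it was not tested.

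Counted over the 8 genes, CNT had the most calls. Of 7 tested there, 6 were lower and 0 higher, in a class where 24.6% of all genes tested were called and 12.3% were called lower. The lower ones include Kcnj15, whose CNT counts are at background, as given below. The median change was -0.95 for the 7 genes, which is the value of Kcnj15, and -0.02 for all genes tested. Kcnk5, the gene not called, stood at 8.12 CPM in sham CNT and 21.8 CPM in sham T or NK cells. In PC 1 of 7 was lower, with 8.05% of all genes called (3.46% lower), and in type B IC 4 of 7, with 10.7% called (5.78% lower). DCT had 0 of 5 called (2.12% of all genes), TAL 0 of 7 (1.86%), type A IC 0 of 6 (1.17%) and thin limb 0 of 4 (0.774%). These counts cover genes at background too. In sham type A IC, Kcnj1 stood at 17.5 CPM, Kcnj15 at 29.6 CPM, Kcnj16 at 27.0 CPM and Kcnk5 at 7.45 CPM. Sham T or NK cells held 15.7, 36.7, 33.4 and 21.8 CPM of these. Kcnj15 and Kcnk5 were also below their T or NK levels in sham DCT, TAL, PC and type B IC. At an unadjusted p under 0.05, edgeR gave 0 of the tested members in DCT (12.5% of all genes at that p), 3 in TAL (12.4%), 1 in type A IC (11.8%) and 2 in thin limb (11%). In PT 1 of 8 was lower, with 7.32% of all genes called (2.29% lower).

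Kcnj1, the apical secretory channel, was called lower in CNT and not in DCT, TAL or PC. There the sham mice had 412.2, 425.3 and 327.7 CPM and the DOCA-salt mice 166.4, 149.5 and 189.7 CPM, without overlap. Kcnj1 fell 2.66-fold (log2 change -1.41, SE 0.16; edgeR adjusted p = 3.04e-05). In DCT the groups overlapped, with 521.0, 642.1 and 422.0 CPM against 535.0, 547.7 and 486.0 CPM (log2 change -0.00, SE 0.18; edgeR adjusted p = 0.997). Over the 15 alternatives run there the DCT change lay between -0.55 and 0.23 and was not called. TAL had 374.2, 430.7 and 317.6 CPM against 375.0, 354.7 and 355.0 CPM (log2 change -0.04, SE 0.12; adjusted p = 0.949). PC had 177.8, 218.0 and 192.5 CPM against 252.8, 174.8 and 176.7 CPM (log2 change 0.08, SE 0.16; adjusted p = 0.804).

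The difference of these changes was itself tested, in a fit of both classes with the mouse as a block. The Kcnj1 change in CNT was lower than in DCT by 1.40 on the log2 scale (difference -1.40, SE 0.16; edgeR adjusted p = 2.01e-09), than in TAL by a difference of -1.37 (SE 0.12; adjusted p = 1.69e-09), and PC minus CNT was 1.49 (SE 0.16; adjusted p = 7.19e-07). The same fits called 14.1% of all genes for CNT against DCT, 20.7% for CNT against TAL and 15.8% for CNT against PC. Differences of Kcnj1 between TAL and DCT (0.05, SE 0.11), TAL and PC (0.13, SE 0.13) and DCT and PC (0.05, SE 0.15) were not called, in fits that called 3.0%, 7.94% and 4.37% of all genes.

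Kcnj10 was likewise called lower in CNT and not in DCT, PC or TAL. Its CNT values were 174.9, 156.4 and 169.9 CPM in sham and 86.41, 80.1 and 67.51 CPM in DOCA-salt, a fall of 2.45-fold (log2 change -1.29, SE 0.15; edgeR adjusted p = 3.72e-05). In DCT, where the basolateral heteromer is best known, Kcnj10 averaged 135 ± 10.6 and 130 ± 23.4 CPM (log2 change -0.04, SE 0.18; edgeR adjusted p = 0.97). Over the 15 alternatives run there the DCT change of Kcnj10 lay between -0.37 and 0.80 and was not called. PC averaged 89.0 and 76.5 CPM (log2 change -0.16, SE 0.17; adjusted p = 0.636) and TAL 62.2 and 66.6 CPM (0.12, SE 0.16; adjusted p = 0.844). The change in CNT differed from that in DCT by -1.25, from that in TAL by -1.41, and the PC minus CNT difference was 1.14, all called.

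Kcnj16, the partner of Kcnj10, fell less in CNT, from 430.4, 390.9 and 425.1 CPM to 233.5, 256.3 and 270.9 CPM (log2 change -0.92, SE 0.14; edgeR adjusted p = 4.59e-04). In DCT the sham values of 285.4 to 302.4 CPM lay above the DOCA-salt values of 244.8 to 265.0 CPM, but the change of -0.20 (SE 0.16) did not pass the test (edgeR adjusted p = 0.649). PC was alike, with a log2 change of -0.21 (SE 0.13; adjusted p = 0.392) and no overlap. The CNT change of Kcnj16 differed from DCT by -0.70, from TAL by -0.89 and PC minus CNT was 0.71. Kcnj15 counts in CNT went from 34.1 ± 5.66 to 20.5 ± 1.52 CPM (log2 change -0.95, SE 0.20; edgeR adjusted p = 0.00394). Sham T or NK cells held 36.7 ± 1.06 CPM and B cells 51.3 ± 18.3 CPM of this proximal gene, so its CNT level is at background and is not read as expression. The 16 PT markers in CNT summed to 1429 to 3044 CPM in sham and 731 to 1111 CPM in DOCA-salt.

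**Figure D3:**
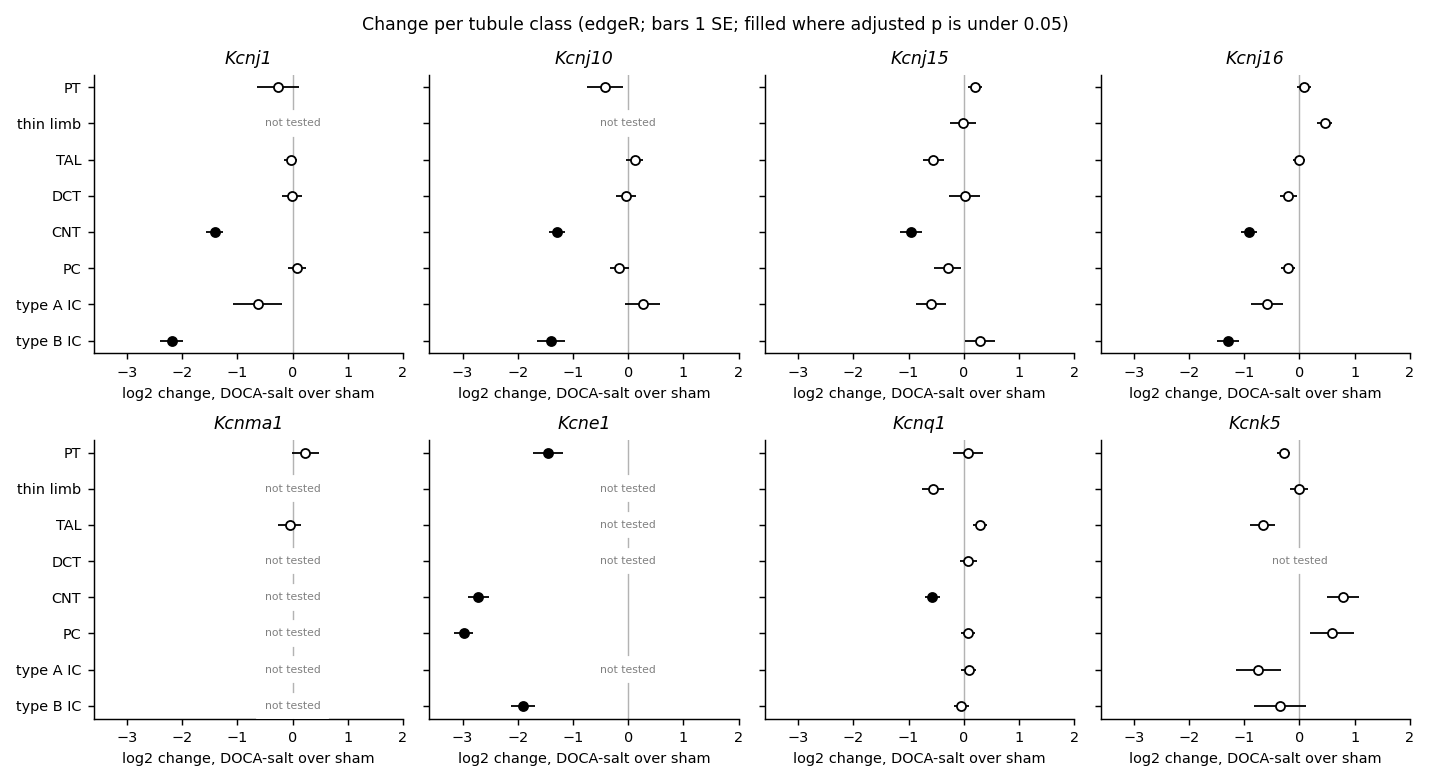
Log2 change of each channel gene, DOCA-salt over sham, in the nephron classes, with bars of 1 SE and filled points where the edgeR adjusted p was under 0.05. In CNT, 6 of 7 genes lie below 0 and are called, Kcnj15 among them, and in DCT none of 5 is called. Kcnj15 counts were at background in both classes.

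The CNT changes depended on which cells were called CNT, that of Kcne1 in its size and the others in their calls too. Inside the sham-rich CNT sub-cluster, pooled Kcnj1 was at 400 CPM in sham and 349 CPM in DOCA-salt cells, and Kcnj10 at 172 and 183 CPM. In the DOCA-salt-rich sub-cluster Kcnj1 was at 270 CPM in sham and 157 CPM in DOCA-salt cells, and Kcnj10 at 112 and 76.2 CPM. At Leiden resolution 2, with fewer DOCA-salt cells in the class, the CNT changes were -0.16 for Kcnj1, -0.08 for Kcnj10, -0.06 for Kcnj16, -0.62 for Kcnj15 and -0.01 for Kcnq1, and none was called (edgeR adjusted p = 0.41 to 0.984). With DCT, CNT and PC summed as 1 class, an alternative chosen after seeing the data in which 13.6% of all genes were called, Kcne1 fell by 3.22 on the log2 scale (edgeR adjusted p = 2.6e-05) and Kcnj16 by 0.38 (adjusted p = 0.045), while Kcnj1 stood at -0.24 (adjusted p = 0.217) and Kcnj10 at -0.43 (adjusted p = 0.065). The pool took cells of the first clustering, before distal clusters were clustered again. There DCT gave 191, 141 and 350 of 542, 545 and 827 pooled sham cells. In DOCA-salt it gave 291, 358 and 300 of 552, 586 and 577. The part of this shift in the pooled changes was not tested.

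Other genes of CNT moved with these changes. The summed level of the 11 CNT markers ran from 40710 to 56369 CPM in sham and from 26187 to 27352 CPM in DOCA-salt, with 5 markers lower and 4 higher without overlap. The 12 macrophage markers summed to 65.2 to 97.4 CPM in sham and 163 to 187 CPM in DOCA-salt, and the 11 fibroblast markers to 50.2 to 66.3 CPM and 144 to 166 CPM. Of these, 7 macrophage and 5 fibroblast markers were higher without overlap, 3 and 8 were at 0 in sham, and Postn was at 0 in all mice. In CNT, 9 of 16 PT markers were lower and 7 of 10 injured PT markers higher without overlap, the latter with sums of 3157 to 6423 CPM in sham and 5509 to 6206 CPM in DOCA-salt. Of 21 dissociation-response genes in CNT, 8 were lower and 4 higher without overlap. In PC, 6 of 10 injured PT markers were higher without overlap, with a sum of 761 to 822 CPM in sham and 4230 to 5391 CPM in DOCA-salt. Macrophage markers in PC summed to 47.3 to 59.7 CPM in sham and 110 to 259 CPM in DOCA-salt (6 higher without overlap), and fibroblast markers to 121 to 142 CPM and 202 to 281 CPM (4 higher). The share of cells called CNT did not pass its test (log2 change -0.55, SE 0.28; edgeR adjusted p = 0.125), and that of PC fell by 0.76 on the log2 scale (SE 0.25; adjusted p = 0.0197), a call lost without sham 3 or DOCA-salt 2 or 3 (adjusted p of 0.0673 to 0.116). At Leiden resolution 2 the CNT share fell by 1.72 and with a 20% mitochondrial limit by 5.44. The part of these values in the channel changes was not tested.

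A further group of distal cells stayed unnamed. It was led by Sox9, S100a6 and Dcdc2a, scored highest for injured PT markers, and held 15, 6 and 12 sham cells against 133, 127 and 77 DOCA-salt cells. The DOCA-salt cells had Kcnj1 at 286 CPM, Kcnj16 at 278 CPM, Kcnj10 at 95.6 CPM and Kcnq1 at 178 CPM, and Kcne1 at 1.30 CPM. Clusters with Sox9 among the leading genes were named DCT in other clusterings. At Leiden resolution 2, one led by Sox9, Fgf13 and Gm26802 held 7, 8 and 7 sham against 91, 82 and 51 DOCA-salt cells. With the stricter mitochondrial limit, one led by Pvalb, Fgf13 and Abca13 held 14, 7 and 12 against 40, 39 and 37 cells. Whether these are the same cells, and their part in the DCT changes, was not tested. Unnamed cells held 6.11% of all Kcnj1 UMIs in sham and 18.3% in DOCA-salt, while the CNT part went from 15.8% to 7.42%, that of TAL from 43.1% to 41.1% and that of DCT from 14.3% to 17.1%.

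**Figure D4:**
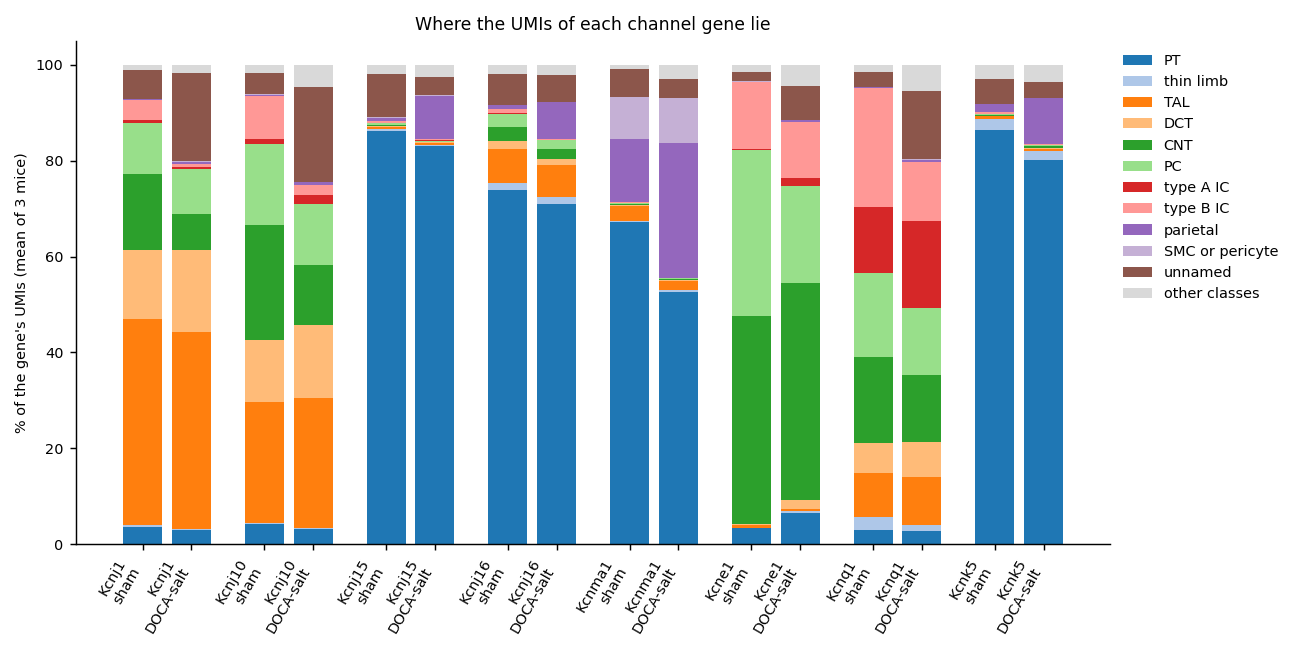
Percent of each channel gene's UMIs that came from each cell class, as the mean of 3 mice in sham and in DOCA-salt. For Kcne1, CNT gave 43.3% in sham and 45.4% in DOCA-salt, and for Kcnj15, PT gave 86.1% and 83.1%.

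In type B IC the inward rectifiers were lower, and this rested on a small set of deep cells. Kcnj1 fell from 63.74, 45.69 and 56.85 CPM to 12.08, 10.76 and 8.384 CPM (log2 change -2.19, SE 0.21; edgeR adjusted p = 6.54e-05), Kcnj10 by 1.39 (adjusted p = 0.00354) and Kcnj16 by 1.29 (adjusted p = 0.00156). A sub-cluster with a median depth 3.66 times that of its libraries held 124 sham and 4 DOCA-salt cells, and there sham Kcnj1 was at 166 CPM and Kcne1 at 174 CPM. At Leiden resolution 2 a type B IC sub-cluster with a depth ratio of 3.17 had the CNT markers Trpv5 and S100g among its leading genes. It held 52, 39 and 54 sham against 17, 7 and 7 DOCA-salt cells. Whether the deep cells hold RNA of other cells was not tested. In the main type B IC sub-cluster Kcnj1 was at 6.85 CPM in sham and 8.29 CPM in DOCA-salt, and Kcne1 at 7.01 and 14.8 CPM. Without the deep sub-cluster, an alternative chosen after seeing the data, the log2 changes turned to 0.47 for Kcnj1, 1.06 for Kcnj10, 0.43 for Kcnj16 and 0.90 for Kcne1, and none was called (edgeR adjusted p = 0.115 to 0.485). With a 20% mitochondrial limit Kcnj1 was at -0.95, Kcnj10 at -1.03 and Kcnj16 at -0.84, none called (adjusted p = 0.16 to 0.251). The classes of the first clustering also ended the calls of Kcnj10 (-0.43, adjusted p = 0.363) and Kcnj16 (-0.51, adjusted p = 0.206), and keeping doublets that of Kcnj16 (-0.57, adjusted p = 0.146). Of 21 dissociation-response genes, 18 were lower without overlap in DOCA-salt type B IC. There 7 of 12 macrophage, 6 of 15 endothelial and 5 of 11 fibroblast markers were higher without overlap, with macrophage sums of 108 to 121 CPM in sham and 198 to 259 CPM in DOCA-salt. The part of these values in the result was not tested.

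In proximal tubule taken whole, the abundant channels showed no called change. Kcnj15 had 438.5, 521.6 and 435.5 CPM in sham and 549.4, 521.1 and 572.0 CPM in DOCA-salt (log2 change 0.20, SE 0.12; edgeR adjusted p = 0.355), and Kcnj16 averaged 392 and 425 CPM (0.08, SE 0.12; adjusted p = 0.715). Kcnk5 had 183.7, 145.7 and 176.9 CPM against 131.1, 149.6 and 146.3 CPM (log2 change -0.28, SE 0.12; adjusted p = 0.178), and without sham 2 it was called lower (-0.36, adjusted p = 0.0351). PT cells of DOCA-salt mice had more injured PT marker RNA, 2765 to 4849 CPM against 608 to 1222 CPM, with 9 of 10 markers higher without overlap. In PT, 9 of 12 macrophage, 9 of 15 endothelial and 9 of 11 fibroblast markers were also higher without overlap. The part of these values in the PT changes was not tested.

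By segment, the Kcnk5 changes differed in direction in the main clustering and not at Leiden resolution 2. In the S1 segment its values of 155.1, 129.3 and 144.8 CPM lay above those of DOCA-salt, 80.24, 104.2 and 105.0 CPM, and Kcnk5 fell by 0.54 (SE 0.12; edgeR adjusted p = 0.0295; 2 of 8 genes called lower, with 6.48% of all genes called). The other S1 call was Kcne1, at background in PT, and it was lost without any mouse except sham 2 and with the replicate block (adjusted p of 0.0832 to 0.132). In S2 Kcnk5 averaged 306 and 215 CPM and was not called (log2 change -0.38, SE 0.14; adjusted p = 0.106), but it was called with library size only (-0.51, adjusted p = 0.0315), without sham 2 (-0.50, adjusted p = 0.0164) and at resolution 2 (-0.50, adjusted p = 0.0468). In S3 the sham values of 45.46, 36.2 and 34.73 CPM lay below the DOCA-salt values of 81.81, 72.79 and 58.35 CPM, and Kcnk5 rose by 0.76 (SE 0.19; adjusted p = 0.00908; 2 of 4 genes higher, 22.5% of all genes called). The other S3 call was Kcnma1 (1.10, adjusted p = 0.0396), lost with DESeq2, without sham 3, DOCA-salt 1 or DOCA-salt 3 and at the 20% mitochondrial limit (adjusted p of 0.051 to 0.618). The S3 minus S1 difference was 1.30 (SE 0.17; edgeR adjusted p = 2.75e-06; 27.4% of all genes called). Kcnj16 in S2 rose from 420.5, 376.1 and 367.1 CPM to 456.9, 625.6 and 495.2 CPM (log2 change 0.57, SE 0.14; adjusted p = 0.0276; 1 of 7 genes called, 11.4% of all genes), while in S1 it stood at -0.34 without passing the test (SE 0.12; adjusted p = 0.138) except without sham 2 (-0.40, adjusted p = 0.0456), a difference of 0.92 (adjusted p = 1.94e-05; 9.94% called). The segments' sub-clusters also divided by group. In S3, one led by Cndp2, Acy3 and Inmt held 469, 284 and 286 sham against 239, 164 and 110 DOCA-salt cells. Its mean score for S3 markers was -0.03. Another, led by Cyp7b1, Serpina1f and Slc7a12 with a score of 2.58, held 36, 14 and 22 against 91, 78 and 53 cells. The S3 label is therefore uncertain. At Leiden resolution 2 Kcnk5 in S3 was called in the opposite direction (-1.15, adjusted p = 2.7e-04), as were Kcnma1 (-1.12, adjusted p = 0.00544) and Kcnj16 (-0.84, adjusted p = 5.52e-04), and with a 20% mitochondrial limit the Kcnk5 change in S3 was 0.29 (adjusted p = 0.603), so its S3 rise depends on the cells taken. With that limit Kcnk5 in S1 was at -0.14 (adjusted p = 0.556), and at resolution 2 at -0.46 (adjusted p = 0.069). The S1 fall of Kcnk5 was also lost without any mouse except sham 2 (adjusted p of 0.0673 to 0.126) and with the replicate block (adjusted p = 0.144), the S3 rise without DOCA-salt mouse 1 (0.63, adjusted p = 0.0726), and the S2 rise of Kcnj16 without sham 1 or 3 or DOCA-salt 2 or 3 (adjusted p of 0.0616 to 0.084), with the block (adjusted p = 0.105) and with scaling by library size only (0.44, adjusted p = 0.0708).

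Summed over the whole kidney, 2 of the 8 genes were lower and 0 higher, with 17.2% of all genes called (5.69% lower). Beside Kcne1 this was Kcnk5, with 125.7, 103.7 and 109.1 CPM in sham against 83.42, 85.34 and 85.72 CPM, a fall of 0.53 on the log2 scale (SE 0.10; edgeR adjusted p = 0.00983). Without DOCA-salt mouse 3 it was -0.52 and not called (adjusted p = 0.0512). Kcnj1 had 52.5, 52.3 and 59.5 CPM against 51.3, 52.2 and 43.3 CPM (log2 change -0.28, SE 0.12; adjusted p = 0.139). Kcnj10, Kcnj15, Kcnj16, Kcnq1 and Kcnma1 lay between -0.32 and 0.23 with adjusted p of 0.203 to 0.612.

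In the remaining classes, changes of level came with changes in the cells. In the class named parietal, Kcnj15 rose from 106.5, 112.2 and 141.3 CPM to 360.6, 310.0 and 366.8 CPM (log2 change 1.69, SE 0.15; edgeR adjusted p = 1.8e-05) and Kcnj16 from 117 ± 28.8 to 262 ± 16.3 CPM (1.34, SE 0.18; adjusted p = 2.15e-04). Kcnma1 fell from 168 ± 9.52 to 99.8 ± 3.55 CPM (log2 change -0.58, SE 0.12; adjusted p = 0.00282), and 30.6% of all genes were called in the class, whose cells grew from 83 to 130 in sham to 301 to 378 in DOCA-salt. With a 20% mitochondrial limit the signs turned for these genes, to -0.19, -0.20 and 0.32, and at Leiden resolution 2 the changes were 0.74, 0.53 and 0.24, none called. At resolution 2 a cluster led by C3, Ptgds, Gpc3 and Sox9 was named injured PT and held 15, 35 and 51 sham against 241, 275 and 310 DOCA-salt cells, while the parietal class held 69, 93 and 86 against 55, 114 and 61 cells. The label of the class is therefore uncertain, and which of its cells carried these changes was not tested. Keeping doublets ended the call of Kcnma1 (-0.23, adjusted p = 0.192). In smooth muscle cells or pericytes Kcnma1 had 295.4, 261.2 and 241.3 CPM in sham and 425.9, 358.8 and 419.8 CPM in DOCA-salt, without overlap, but the log2 change of 0.55 (SE 0.16) did not pass (edgeR adjusted p = 0.0986). Kcnj15 fell there by 1.15 (SE 0.26; adjusted p = 0.0245), from 64.5 ± 7.14 to 29.9 ± 7.04 CPM, with 2.21% of all genes called, and this call was lost without sham 1 or 3 or DOCA-salt 1 or 2 (adjusted p of 0.059 to 0.152) and with the replicate block (adjusted p = 0.101). It was also lost at the 20% limit (-0.35, adjusted p = 0.728), with doublets kept (-0.68, adjusted p = 0.117) and with DESeq2 (adjusted p = 0.0866). Sham B cells held 51.3 ± 18.3 CPM and monocytes 81.8 ± 14.5 CPM of Kcnj15, so its level in smooth muscle cells or pericytes is within background.

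Of 40 other potassium channel subunits listed, 39 were among the genes counted, and few were abundant. In PT, where 7.32% of all genes were called, 15 were tested and 3 rose, Kcnh1 (log2 change 2.25), Kcnt2 (1.78) and Kcnk1 (1.44), all at or below 8.42 CPM on average. Kcnt2 averaged 0.274 CPM in sham and 1.005 CPM in DOCA-salt, near the 0.989 CPM of Kcne1 in sham PT that was taken as background. The genes that rose were not set against a background class. In CNT 0 of 3 (24.6% of all genes), in DCT 0 of 4 (2.12%) and in TAL 0 of 4 (1.86%) were called, and in PC 1 of 5 (8.05%), Kcnk2, fell from 8.73 ± 1.83 to 3.20 ± 0.959 CPM (log2 change -1.35, SE 0.37; edgeR adjusted p = 0.0405). The median change of this list was 0.19 in CNT, over the 3 genes tested. That of the 7 tested channel genes was -0.95, the value of Kcnj15, which is at background in CNT.

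Of 41 listed partners in potassium handling, 39 were counted. Their changes are given for the main clustering only. There the CNT and PC cells of the groups lay largely in different sub-clusters, and the CNT name of the DOCA-salt-rich one is unstable. The part of this in the partner changes was not tested. Scnn1b and Scnn1g also served as markers that named CNT and PC, and Hsd11b2 as a marker of PC. In CNT 36 partners were tested, of which 14 fell and 4 rose, where 24.6% of all genes were called and 12.3% were lower. Among those that fell were Hsd11b2, the enzyme that keeps glucocorticoids off the mineralocorticoid receptor, from 3119 ± 901 to 1025 ± 216 CPM (log2 change -1.80, SE 0.21), and Atp4a, a proton pump subunit, by 2.72. Casr, the calcium-sensing receptor, fell by 1.89 and Cav1, a caveolar protein, by 1.69. All 3 subunits of the epithelial sodium channel, Scnn1a, Scnn1b and Scnn1g, and Nr3c2 itself also fell. Those that rose were Slc12a3, the sodium chloride cotransporter that marks DCT, from 71.9 ± 54.6 to 438 ± 78.7 CPM (log2 change 2.39, SE 0.50; edgeR adjusted p = 0.00337), Atp12a (2.62), Ppp1r1a (1.56) and Slc12a4 (1.28).

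In PC 33 partners were tested, with 6 lower and 1 higher, where 8.05% of all genes were called and 3.46% were lower. Atp4a fell by 2.18, Nedd4l, a ubiquitin ligase acting on the sodium channel, by 0.88, Scnn1g by 0.85 and Scnn1b by 0.83. Sgk1, a kinase induced by mineralocorticoids, rose from 117 ± 32.3 to 187 ± 38.5 CPM (log2 change 0.72, SE 0.20; edgeR adjusted p = 0.0397). In DCT 2 of 33 were lower (2.12% of all genes called), Atp4a and Klhl3, the latter from 804 ± 87.6 to 475 ± 14.5 CPM (log2 change -0.76, SE 0.17; adjusted p = 0.0177), and in TAL 2 of 34 (1.86%), Wnk1 (-0.97) and Klhl3 (-0.64), both regulators of the cotransporters. In PT 0 of 36 were called by edgeR, against 7.32% of all genes.

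Genes distributed most like each channel were ranked by Pearson r of log2(CPM + 1) over 17 classes, among 11582 genes, as a description in which all points share libraries. For Kcne1 these were Spock3 (r = 0.95), Col26a1 (0.94) and Sprr2g (0.94), and near Kcnq1 stood Sgpp2 (0.95) and Tmem213 (0.95). Kcnj1 and Kcnj10 shared Tfap2b, at 0.95 and 0.89, and Tmem52b, at 0.92 for both. Kcnj15 lay beside Mettl7b and Slc3a1 (both 0.99), and Kcnk5 beside Bnc2 (0.95), Bdh2 (0.94) and Folr1 (0.94). For Kcnj16 the nearest was Mfap3l (0.93) and for Kcnma1 it was Chrna7 (0.91). With a pseudocount of 5 CPM Bdh2 and Chrna7 left the nearest 3, and Cspg4 (0.94) came first for Kcnma1.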

How the data were processed

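Raw UMI counts per gene and barcode were deposited by the authors, 1 matrix per mouse, from 10x 3′ libraries aligned to GRCm39. The submitters' processing notes name Cell Ranger 9.0.0, Seurat 4.0.0 and R 4.0.3. The annotation release was not given in the sources used here. The matrices carry no cell types, so these were rebuilt. The 8 genes and the gene lists were chosen with earlier results of these data known.

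Barcodes were kept from 500 UMIs and 170 genes upwards if mitochondrial genes gave no more than 50% and hemoglobin genes no more than 5% of UMIs, and doublets predicted by Scrublet at 0.8% per 1000 barcodes were removed. Counts were scaled to 10000 per cell, and 2000 variable genes without the 8 channel genes and listed genes, 30 components, 15 neighbours and Leiden resolution 1 in scanpy 1.11.5 gave clusters, which were named from fixed markers. Distal, immune and PT clusters were clustered again. UMIs were summed per mouse and class, and classes with at least 10 cells in every mouse were tested with edgeR 4.0.16 (quasi-likelihood, TMM, filterByExpr). Named genes were the 8 channels, the 3 most alike per channel (at least 20 CPM in 1 class) and list genes past an adjusted p of 0.05, with values for the 4 largest changes per direction. Some of the most alike genes are not reported here. In data simulated for CNT with 10178 genes, 82% of 200 changed genes were recovered, 93% of those changed 4-fold and 71% of those changed 2-fold. For DCT, with 8605 genes, these were 72.5%, 89% and 56%. False calls were 14 of 178 in the CNT simulation and 6 of 151 in that for DCT.

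Deviations of same-numbered mice from their group means correlated at -0.1007, -0.761 and -0.2692 over 6691 genes, so same-numbered mice did not deviate alike. Pairs with different numbers ran from -0.5897 to 0.5837. Whether libraries shared a day or batch was not tested. The labels number the replicates of each group, and these were taken as separate mice because the study gives n = 3 per group. No 2 libraries agreed within sampling noise.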

Additional observations from a re-analysis of the deposited data

Results flagged for a closer look

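The results below are differences between 2 classes in the change from sham to DOCA-salt that passed the edgeR test of the difference itself. Of 73 such differences tested for the 8 genes over 10 pairs of classes, 24 passed. Those of Kcne1 are among them and are no test of a class difference, as given below. The same fits called between 3.0% and 27.4% of all genes per pair. The CNT, PC and PT segment classes of the groups consist largely of different sub-clusters, as given above, and the part of this in the differences was not tested. The unnamed group led by Sox9 lay outside DCT in these fits, and its part in the differences from DCT was not tested.

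CNT minus DCT was -1.40 for Kcnj1, -1.25 for Kcnj10, -0.93 for Kcnj15, -0.70 for Kcnj16, -2.39 for Kcne1 and -0.62 for Kcnq1. The Kcnj15 counts in CNT and DCT, at 27.3 and 28.9 CPM, were at background, since T or NK cells held 36.7 CPM in sham. CNT minus TAL was -1.37 for Kcnj1, -1.41 for Kcnj10, -0.89 for Kcnj16, -0.84 for Kcnq1 and 1.497 for Kcnk5, a gene at 12.2 CPM or less on average in both, below its 21.8 CPM in sham T or NK cells. PC minus CNT was 1.49 for Kcnj1, 1.14 for Kcnj10, 0.71 for Kcnj16 and 0.63 for Kcnq1, and for Kcne1, which fell in both, it was -0.28 (SE 0.17; edgeR adjusted p = 0.312). Kcne1 gave -2.68 for PC minus DCT and 2.57 for type A IC minus PC. With means of 3.62 CPM in DCT and 2.48 CPM in type A IC, it was too low to test in those classes and entered these fits, and that of CNT with DCT, through CNT or PC, so its 3 values restate the falls there and are no test of a class difference.

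Between PT segments, Kcnj16 gave 0.92 for S2 minus S1, 0.51 for S3 minus S1 and -0.36 for S3 minus S2. Kcnk5 gave 1.30 for S3 minus S1 and 1.15 for S3 minus S2. Kcnma1 gave -0.69 for S2 minus S1 and 1.08 for S3 minus S2. At Leiden resolution 2, where these differences were not run, the S3 changes of Kcnj16, Kcnk5 and Kcnma1 were called lower. The S3 label itself is uncertain, as given above.

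Scaling by library size only ended the calls of Kcnj16 for S3 minus S2 (-0.12, adjusted p = 0.58), Kcnj15 for CNT minus DCT (-0.74, adjusted p = 0.0985) and Kcnq1 for CNT minus DCT (-0.43, adjusted p = 0.0606). Leaving out 1 mouse also ended some calls. The Kcne1 differences that involve DCT or type A IC were lost without DOCA-salt mouse 1 (-1.97 for CNT minus DCT, -2.18 for PC minus DCT and 1.88 for type A IC minus PC). Kcnj15 for CNT minus DCT was lost without sham 2, sham 3 or DOCA-salt 3 (-0.72 to -0.89), Kcnj16 for S3 minus S2 without sham 1, sham 3, DOCA-salt 2 or DOCA-salt 3 (-0.28 to -0.38), Kcnma1 for S2 minus S1 without sham 1, DOCA-salt 2 or DOCA-salt 3 (-0.48 to -0.70), and Kcnma1 for S3 minus S2 without sham 2 or DOCA-salt 1 (0.79 and 0.74).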

How the results depend on the processing

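Kcne1 kept its direction and call in CNT, PC and the whole kidney under each alternative run there, and the 20% mitochondrial limit left too few DOCA-salt cells for a CNT value. At Leiden resolution 2 the CNT changes were -0.16 for Kcnj1, -0.0756 for Kcnj10, -0.62 for Kcnj15, -0.0603 for Kcnj16 and -0.0122 for Kcnq1, none called, in a class with fewer DOCA-salt cells. With DCT, CNT and PC of the first clustering pooled they were -0.24 for Kcnj1, -0.43 for Kcnj10, -0.35 for Kcnj15 and -0.27 for Kcnq1, none called. DCT cells made up more of that pool in DOCA-salt, as given above. Scaling by library size only gave -0.36 for Kcnq1 in CNT. The type B IC changes turned to 0.47 (Kcnj1), 1.06 (Kcnj10), 0.43 (Kcnj16) and 0.90 (Kcne1) without the deepest sub-cluster, none called. In S3 they turned to -0.84 (Kcnj16), -1.12 (Kcnma1) and -1.15 (Kcnk5) at resolution 2, all called in that direction. In the parietal class they turned to -0.19 (Kcnj15), -0.20 (Kcnj16) and 0.32 (Kcnma1) at the 20% limit, and to 0.24 (Kcnma1) at resolution 2, none called. The cause was not tested. Leaving out each mouse in turn gave -0.60 to -0.45 for Kcnk5 in the whole kidney.

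Over 8 tubule classes 12 channel changes were called lower, 4 at the 20% limit and 7 at resolution 2, and 0 higher, 1 with library size only, 1 without doublet removal and 0 to 1 without each mouse. The 12 lay in CNT (6 of 7 tested, 24.6% of all genes called), type B IC (4 of 7, 10.7%), PC (1 of 7, 8.05%) and PT (1 of 8, 7.32%). They include Kcnj15 in CNT and Kcne1 in PT, both at background, and the 4 of type B IC turned without the deepest sub-cluster. CNT could not be tested at the 20% limit, so its 6 calls drop out of that count. No share over all genes is set beside the counts under the alternatives. Genes called in PT were 1170, with DESeq2 1806, at the 20% limit 1879. In thin limb 90 became 174 with DESeq2 and 498 without a filter on low counts, which gave 616 for 224 in TAL, 328 for 182 in DCT, 1463 for 855 in PC and 344 for 118 in type A IC. DCT gave 536 at the 20% limit, 449 without doublet removal, 392 at resolution 2 and 875 with the first clustering, CNT 604 at resolution 2 for 2508, type A IC 382 at the 20% limit, 76 without doublet removal and 290 with the first clustering, and type B IC 122 at the 20% limit for 1130. Leaving out each mouse in turn gave 321 to 2633 in PT, 25 to 244 in thin limb, 61 to 682 in TAL, 63 to 394 in DCT, 430 to 1262 in PC, 23 to 182 in type A IC, 558 to 1760 in type B IC and 1733 to 4719 in the whole kidney.

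Same-numbered mice did not deviate alike from their group means. With the replicate block Kcne1 changed by -2.73 in CNT and -3.00 in PC, and genes called were 231 in PT, 54 in TAL, 61 in DCT, 429 in PC, 32 in type A IC, 603 in type B IC and 2085 in the whole kidney.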
